A study of Mus musculus with 24 samples.

Results

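The genes described here encode chromatin modifiers and remodellers, and were followed in whole mouse lung from birth to adulthood. Members were chosen by gene symbol: the CHD remodellers *Chd1* to *Chd9*, the methyltransferase families *Kmt2*, *Kmt5*, *Setd* and *Nsd*, the lysine demethylases (*Kdm*), the histone deacetylases (*Hdac*), the ARID proteins, the *Smarc* genes, and *Ep300* and *Crebbp*. The rule found 82 genes among the 19938 genes that had an array row of their own, and the brightest row stood for each gene. *Ash1l*, which the rule also names, had no such row and was not analysed here. The rule used gene names and no measured value, but it was set with earlier results of these data known. The row of each gene was picked by its mean level.

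The data are 24 arrays (Affymetrix Mouse Gene 1.0 ST), with 3 in each of 8 groups. The groups were wild-type (WT) and *Scnn1b*-Tg males of the C57Bl/6N Tac strain at postnatal day (PND) 0, 3, 10 and 42, and the WT mice were littermates. *Scnn1b*-Tg mice overexpress the β subunit of the epithelial sodium channel in the club cells of the airway, and develop airway surface dehydration and mucus obstruction. Whole-lobe RNA does not show in which cells the transgene acted. Each array held RNA of the whole left lobe from a pool of mice. The methods give pools of 3 animals, whereas most labels list 2 animals, and the label of the third *Scnn1b*-Tg array at PND 42 lists 1. No group received a treatment. In such bulk samples, fewer cells of a type and less RNA per cell cannot be told apart.

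Chromatin modifiers write, erase or read chemical marks on histone tails, and remodellers use ATP to slide or evict nucleosomes. H3K4 methyltransferases and the acetyltransferases CBP and p300 mark active promoters and enhancers, whereas deacetylases remove acetyl groups and generally favour repression. SWI/SNF (BAF) complexes join an ATPase to a set of accessory subunits, and in the lung such complexes and class I deacetylases are known for their part in epithelial development.

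The genotype labels held. *Scnn1b* was higher in *Scnn1b*-Tg lungs by 2.93 to 3.29 log2 units at the 4 ages, with no overlap between arrays, and *Ttr*, carried by the construct, by 1.89 to 2.71. Values are RMA log2 levels, on which 1 unit is 2-fold. Array medians over the table ran from 4.79 to 4.996, and arrays of a group correlated at 0.963 to 0.996. A gene was called changed at an adjusted p of at most 0.05 (limma with Benjamini-Hochberg adjustment over 21789 rows) and a difference of at least 2-fold. All p-values rest on the spread between arrays within groups, pooled over the 8 groups of 3 arrays and moderated across rows by limma.

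The largest movement of these genes lay between birth and PND 3. In WT lungs 42 of the 82 genes fell and 0 rose, which is 51.2% against 7.02% of all genes called lower and 1.88% called higher. In *Scnn1b*-Tg lungs 37 fell and 0 rose, or 45.1%, against 6.78% of all genes called lower and 2.07% called higher. The median change of the 82 genes was -1.01 in WT and -0.96 in *Scnn1b*-Tg, beside a median of 0.07 over all genes in both genotypes. At the adjusted p alone, 60 were lower and 2 higher in WT, against 24.2% and 21.8% of all genes, and 65 were lower and 3 higher in *Scnn1b*-Tg, against 23.6% and 25% of all genes. With array medians subtracted, which moved the WT median of all genes to 0.24, 34 genes were called lower in WT and 35 in *Scnn1b*-Tg. The shares of all genes called lower were then 4.64% and 4.69%. With quantile normalization repeated 29 and 30 were called lower, against 3.78% and 4.03% of all genes. The arrays of PND 3 lay entirely below those of PND 0 for 62 genes in WT, a pattern seen in 26.3% of all genes.

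*Chd7*, an ATP-dependent remodeller with a role in organ development, had the largest WT decline. Its WT level was 8.69, 8.0 and 8.16 at PND 0 and 5.56, 6.21 and 5.27 at PND 3. In *Scnn1b*-Tg it was 8.24, 8.41 and 8.51 at PND 0 and 6.37, 6.18 and 5.65 at PND 3. No array of PND 3 came near the arrays of PND 0 in either genotype. The change was -2.60 ± 0.25 (SE, n = 3 against 3; limma adjusted p = 6.7e-08) in WT, a 6.07-fold fall, and -2.32 ± 0.25 in *Scnn1b*-Tg. *Chd7* is the member with the most rows, 30 in all. The mean change was negative on all 30 rows in WT, from -3.08 to -0.43 with a median of -1.82, and 26 rows were called lower in each genotype.

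*Kmt2e*, a member of the KMT2 family by sequence, measured 8.31, 8.07 and 8.25 in WT at PND 0 and 6.02, 6.22 and 6.01 at PND 3. Its change was -2.13 ± 0.20 in WT and -2.51 ± 0.20 in *Scnn1b*-Tg. *Kmt2a* (MLL1), an H3K4 methyltransferase, measured 6.90, 7.05 and 7.12 in WT at PND 0 and 5.22, 4.85 and 4.92 at PND 3. Both genes were thus separated between the ages by more than 1 log2 unit on every array. *Kmt2a* changed by -2.03 ± 0.17 in WT (limma adjusted p = 1.1e-08) and by -2.35 ± 0.17 in *Scnn1b*-Tg, where its arrays went from 7.15, 7.64 and 7.58 to 5.33, 5.08 and 4.91.

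*Kmt2d* (MLL4), which monomethylates H3K4 at enhancers, measured 6.61, 6.79 and 6.82 in WT at PND 0 and 4.76, 4.85 and 4.93 at PND 3, near the array median. It fell by 1.89 ± 0.16 in WT and by 2.26 ± 0.16 in *Scnn1b*-Tg, and its second row fell by 2.37 in WT. *Chd2*, another CHD remodeller, went from 8.01, 7.50 and 7.30 to 5.63, 5.64 and 5.84 in WT. The arrays of both genes kept the same order of ages in *Scnn1b*-Tg. *Chd2* changed by -1.90 ± 0.17 in WT and -2.13 ± 0.17 in *Scnn1b*-Tg. *Arid2*, which targets the PBAF form of SWI/SNF, went from 8.74, 8.70 and 8.84 to 7.01, 7.02 and 6.73 in WT, a change of -1.84 ± 0.17, and changed by -1.86 ± 0.17 in *Scnn1b*-Tg.

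**Figure D1:**
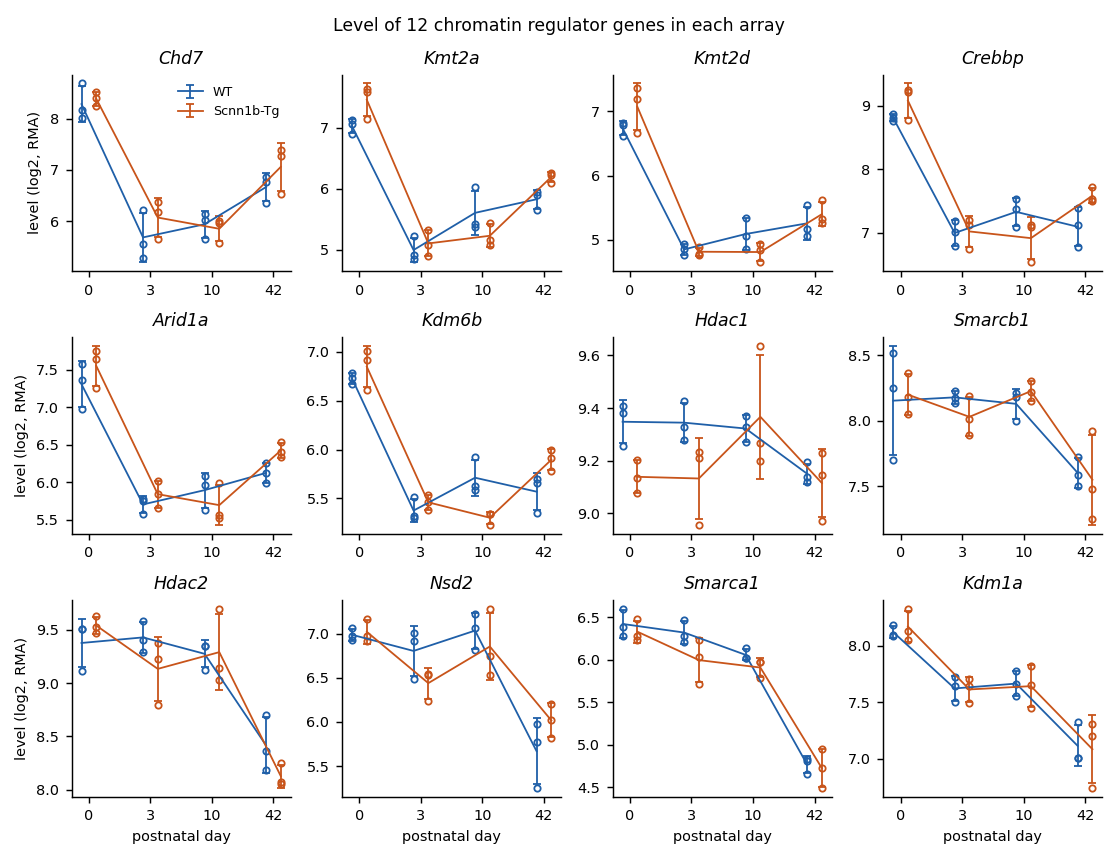
Level of 12 genes in each array (log2, RMA; the y axis differs between panels) against postnatal day (ages evenly spaced, not to scale), in WT (blue) and *Scnn1b*-Tg (orange). Circles are arrays, lines join group means and bars are the SD (n = 3). *Chd7*, *Kmt2a*, *Kmt2d*, *Crebbp*, *Arid1a* and *Kdm6b* stepped down between PND 0 and PND 3. The means of *Hdac2*, *Nsd2*, *Smarca1*, *Kdm1a*, *Smarcb1* and *Hdac1* were lowest at PND 42 in both genotypes, by little for *Hdac1*.

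Promoter sequence is shown to set genes that fell early beside genes that did not. RefSeq (GRCm38.p6) gave a promoter window of 300 bases, 250 before and 50 after the start, for 60 of the 82 genes, and the first listed start was used. The 60 windows held a median of 23 CG dinucleotides (quartiles 17 and 32), against 15 (5 and 25) over 15563 tested genes. Windows of the 26 genes that fell in WT held a median of 25, and those of the other 34 genes 22. The 120 bases before the start are printed 5′ to 3′, with each CG dinucleotide in capitals. *Kmt2a*, *Kmt2d*, *Crebbp* and *Ep300* fell by PND 3, *Hdac2* and *Smarcb1* did not pass the test there, and *Smarca1* fell only after PND 10.
*Kmt2a*, chr9:44881290-44881409, minus strand: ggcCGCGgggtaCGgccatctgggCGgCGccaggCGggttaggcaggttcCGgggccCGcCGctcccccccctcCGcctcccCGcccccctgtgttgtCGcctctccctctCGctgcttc
*Kmt2d*, chr15:98871206-98871325, minus strand: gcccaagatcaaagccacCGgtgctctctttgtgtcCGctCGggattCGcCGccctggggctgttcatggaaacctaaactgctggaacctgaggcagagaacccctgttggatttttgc
*Crebbp*, chr16:4213405-4213524, minus strand: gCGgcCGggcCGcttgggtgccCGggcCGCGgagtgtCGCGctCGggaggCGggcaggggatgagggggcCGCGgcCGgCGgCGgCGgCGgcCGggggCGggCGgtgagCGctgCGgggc
*Ep300*, chr15:81586094-81586213, plus strand: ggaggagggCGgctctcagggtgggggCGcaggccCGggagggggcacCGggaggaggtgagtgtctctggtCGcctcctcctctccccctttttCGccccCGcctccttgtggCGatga
*Hdac2*, chr10:36974424-36974543, plus strand: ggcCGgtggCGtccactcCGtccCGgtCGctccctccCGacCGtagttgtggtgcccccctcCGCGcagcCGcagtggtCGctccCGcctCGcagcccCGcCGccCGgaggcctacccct
*Smarcb1*, chr10:75921615-75921734, minus strand: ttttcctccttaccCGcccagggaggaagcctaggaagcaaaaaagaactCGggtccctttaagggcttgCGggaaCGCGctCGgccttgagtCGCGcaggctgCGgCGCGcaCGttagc
*Smarca1*, chrX:47892614-47892733, minus strand: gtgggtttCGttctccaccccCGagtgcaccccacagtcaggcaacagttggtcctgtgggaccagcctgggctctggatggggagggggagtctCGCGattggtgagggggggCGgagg
The stretches hold 13 CG dinucleotides for *Kmt2a*, 5 for *Kmt2d*, 22 for *Crebbp*, 8 for *Ep300*, 16 for *Hdac2*, 12 for *Smarcb1* and 5 for *Smarca1*, so the genes that fell and those that did not overlap in this count. The stretches of *Kmt2d*, *Crebbp* and *Hdac2* lie wholly inside the annotated span of the gene, and those of *Kmt2a* and *Ep300* in part. Searched on both strands, GGGCGGG (the SP/KLF box) was in 48.3% of the 60 windows and 36.7% of all windows, CCGGAAG (the ETS core) in 13.3% and 12.5%, and CCAAT in 38.3% of both. TATAAA was in 8.33% and 12.1%, CACGTG (the E-box) in 3.33% and 8.4%, AAGATGGC (YY1) in 3.33% and 3.43%, and TTTCCCGC (E2F) in 3.33% and 1.59%. The palindromic NRF1 motif and TGACGTCA (CRE) had 0 matches in the 60 windows and were in 1.46% and 2.5% of all windows. Between the 26 windows of genes that fell in WT and the other 34, CCAAT was in 26.9% and 47.1%, the SP/KLF box in 46.2% and 50%, the ETS core in 11.5% and 14.7% and TATAAA in 7.69% and 8.82%. The E-box was in 7.69% and 0%, the YY1 motif in 3.85% and 2.94%, and the E2F motif in 0% and 5.88%. A match here is a description only, and these shares were not tested.

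Among writers of histone marks the calls differed from group to group. Of the 8 genes grouped as H3K4 methyltransferases, 7 fell in WT and 5 in *Scnn1b*-Tg, with a median change of -1.72 and -1.94. This group counts *Kmt2e*, which belongs to the family by sequence. *Kmt2c* changed by -1.80 and -2.23 and *Kmt2b* by -1.63 and -1.64 in WT and *Scnn1b*-Tg. *Setd1a* and *Setd1b*, catalytic subunits of the SET1 complexes that deposit most H3K4 trimethylation, were called in WT (-1.24 and -1.02) and just missed the fold threshold in *Scnn1b*-Tg (-0.95 and -0.99). *Setd7*, which monomethylates H3K4 and other proteins, was the member not called in either genotype, at -0.90 and -0.62.

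The paired acetyltransferases CBP (*Crebbp*) and p300 (*Ep300*) both fell. *Crebbp* went from 8.81, 8.76 and 8.87 to 7.01, 7.19 and 6.79 in WT and from 8.77, 9.25 and 9.22 to 7.20, 7.13 and 6.74 in *Scnn1b*-Tg. *Ep300* went from 7.99, 7.82 and 7.91 to 5.93, 6.29 and 6.21 in WT and from 8.05, 8.43 and 8.35 to 6.73, 6.45 and 6.01 in *Scnn1b*-Tg. The ages did not overlap for either gene. The declines were 3.51-fold and 3.39-fold in WT and 4.17-fold and 3.68-fold in *Scnn1b*-Tg.

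Of the 4 H3K36 methyltransferases, *Setd2*, which places H3K36 trimethylation along transcribed genes, *Nsd1* and *Nsd3* fell in both genotypes (-1.68, -1.14 and -1.23 in WT). *Nsd2* was at -0.18 ± 0.19 in WT and -0.58 in *Scnn1b*-Tg, and was not called. Of the 3 H4K20 methyltransferases only *Kmt5b* fell in both genotypes (-1.03 and -1.19). *Kmt5a*, the monomethyltransferase of that residue, was at -0.11 and -0.36. Of the 4 other SET domain proteins *Setd5* alone fell (-1.65 and -1.64).

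Among the 18 lysine demethylases, the erasers of histone methylation, 11 fell in WT and 8 in *Scnn1b*-Tg, with a median change of -1.17 and -0.94. *Kdm7a* had the largest decline (-1.82 and -2.11), followed in WT by *Kdm2a* (-1.55), *Kdm5a* (-1.47), *Kdm6a* (-1.46) and *Kdm3b* (-1.46). *Kdm6a* and *Kdm6b* erase H3K27 methylation, and *Kdm6b* fell by 1.35 in WT and 1.39 in *Scnn1b*-Tg. *Kdm5c* on the X chromosome and its counterpart on the Y, *Kdm5d*, were at -1.12 and -1.24 in WT. *Kdm4d*, whose mean level of 3.76 was among the lowest, was at 0.29 in WT and passed the adjusted p but not 2-fold.

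Remodellers and their partner subunits were divided. Of the 9 CHD remodellers 7 fell in both genotypes, among them *Chd6* (-1.70 in WT), *Chd3* (-1.50), *Chd1* (-1.30) and *Chd8* (-1.01). *Chd4*, the main ATPase of the NuRD complex, was at -0.84 and -0.995, under 2-fold, and *Chd5* was near 0 at a mean level of 4.37. The large ARID subunits of SWI/SNF moved with them: *Arid1a* changed by -1.60 and -1.71 and *Arid1b* by -1.05 (called) and -0.89 (not called). *Smarca2* (BRM), 1 of the alternative SWI/SNF ATPases, fell by 1.21 in WT and 1.49 in *Scnn1b*-Tg, whereas its paralogue *Smarca4* (BRG1) was at -0.50 and -0.64.

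Among the other SWI/SNF subunits 0 of 7 were called in WT and 1, *Smarcd1*, in *Scnn1b*-Tg. *Smarcb1* (SNF5), a core subunit, measured 7.70, 8.51 and 8.25 in WT at PND 0 and 8.23, 8.17 and 8.13 at PND 3, a change of 0.03 ± 0.17. Its arrays overlapped between the ages. *Smarcd2* was at 0.09, *Smarcd3* at 0.45 and *Smarce1* at 0.31 in WT, and none was called. *Smarcc1* and *Smarcc2*, the paired scaffold subunits, were at -0.47 and -0.44, and *Smarcd1* was called in *Scnn1b*-Tg (-1.16) and not in WT (-0.88). In all, 3 of the 10 SWI/SNF subunits fell in each genotype. Of the 6 SNF2 ATPases, *Smarca2* fell in WT, and *Smarca2* and *Smarcad1* (-1.04) in *Scnn1b*-Tg. Of the 7 other ARID proteins, *Arid4a*, *Arid4b* and *Arid5b* fell in both genotypes (-1.56, -1.43 and -1.72 in WT).

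Most deacetylases were not called. *Hdac1*, a class I enzyme of the NuRD, Sin3 and CoREST complexes, measured 9.41, 9.26 and 9.38 in WT at PND 0 and 9.43, 9.33 and 9.28 at PND 3, a change of 0.00 ± 0.11. *Hdac2*, its close partner, measured 9.12, 9.51 and 9.50 and then 9.58, 9.29 and 9.41, a change of 0.05 ± 0.17. The arrays of the ages overlapped in part for both genes in WT. In *Scnn1b*-Tg *Hdac1* was at -0.01, whereas *Hdac2* went from 9.63, 9.47 and 9.52 to 8.80, 9.38 and 9.22, a change of -0.41 ± 0.17 without overlap (limma adjusted p = 0.0518). *Hdac3*, the catalytic subunit of the NCoR corepressor, was at 0.32 and 0.29. The class IIa enzymes *Hdac4* (-1.51 and -1.16) and *Hdac7* (-1.46 and -1.58) fell in both genotypes, and *Hdac5* fell in WT (-1.01) and was at -0.91 in *Scnn1b*-Tg. *Hdac9*, also class IIa, was at -0.51 and -0.62, and the class I enzyme *Hdac8* at -0.46 and -0.36. *Hdac6*, which deacetylates tubulin, was at -0.57 and -0.37, *Hdac10* at -0.38 and -0.60, and *Hdac11* at 0.33 and 0.58, and none of these 5 genes passed 2-fold. A difference between the classes was not tested. In all, 3 of 11 deacetylases fell in WT and 2 in *Scnn1b*-Tg, where 7.02% and 6.78% of all genes did.

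The rows of 3 genes named here need care. The brightest rows of *Hdac1*, *Smarce1* and *Setd3* are numbered among rows whose genes lie on another chromosome, so they may measure near-identical copies. The row numbered on the gene's own chromosome gave 0.07 for *Hdac1*, 0.21 for *Smarce1* and -0.19 for *Setd3* in WT, and none of these was called.

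**Figure D2:**
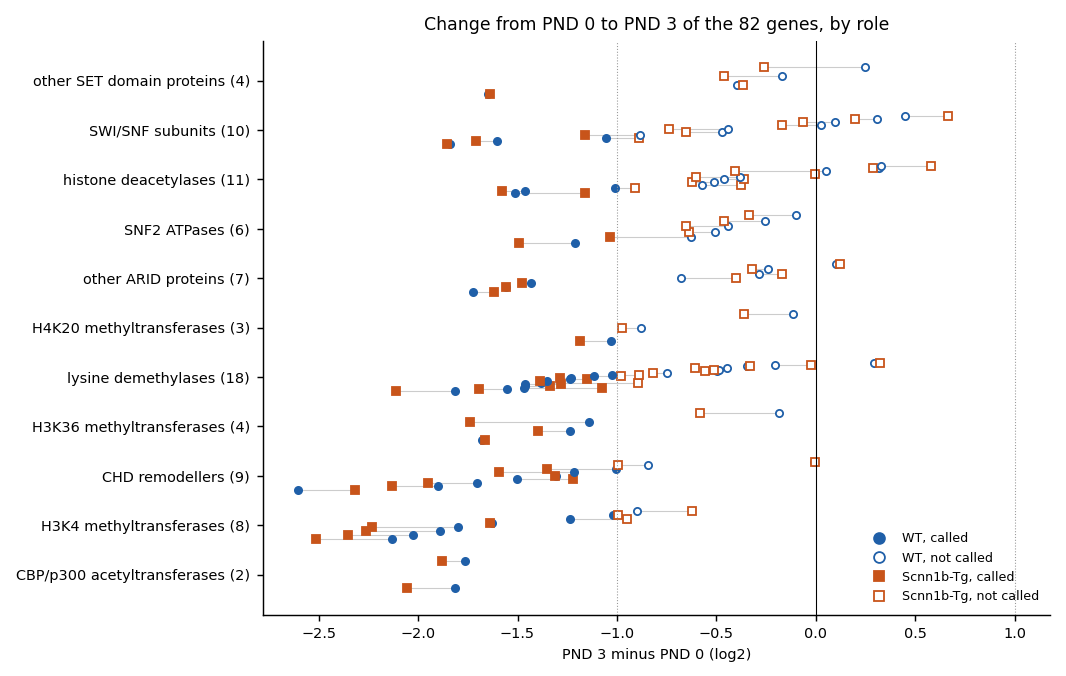
Change from PND 0 to PND 3 (log2; negative is lower at PND 3) of each of the 82 genes, grouped by role with the number of genes in parentheses, in WT (circles) and *Scnn1b*-Tg (squares). Filled symbols passed the test and the 2-fold threshold, dotted lines mark 2-fold, and a grey line joins the genotypes of a gene. No filled symbol lies to the right of 0.

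The declines were shared by the genotypes. Of the genes that fell by PND 3, 35 did so in both, which is 83.3% of the WT genes and 94.6% of the *Scnn1b*-Tg genes, and 5.18% of all genes fell in both. The 7 called in WT only were *Arid1b*, *Hdac5*, *Kdm3a*, *Kdm4b*, *Kdm5c*, *Setd1a* and *Setd1b*, and the 2 called in *Scnn1b*-Tg only were *Smarcad1* and *Smarcd1*. In the limma test of the difference between the genotypes in this change 0 of 82 were called, as were 0% of all genes, and 1 of 82 had an unadjusted p of at most 0.05 against 4.71% of all genes.

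Gene length moved with these declines. The 82 genes span a median of 56.1 kb (GRCm38.p6), against 19.2 kb over 18556 protein-coding genes. Among all protein-coding genes, 1.07% of those under 10 kb were called lower in WT, 4.92% of those of 10 to 30 kb, 12.4% of those of 30 to 100 kb and 19.9% of those over 100 kb. In the same bins 0 of 5, 5 of 18, 22 of 38 and 15 of 21 chromatin genes were called lower. The share was thus higher among the chromatin genes in the 3 upper bins. As a description, Spearman's rho of length with the WT change was -0.51 across the 82 genes and -0.38 across all protein-coding genes, which share their arrays and are not independent replicates. Genes of middle level (6 to 9) and over 30 kb were lower in 25.3% of 2981 cases, and 32 of 45 such chromatin genes were. The part of length in the result was not tested further.

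**Figure D3:**
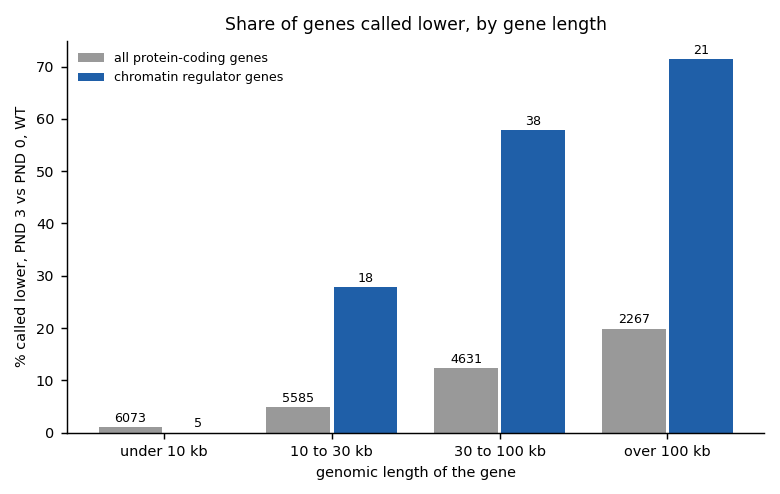
Percent of genes called lower at PND 3 against PND 0 in WT, by genomic length, for all protein-coding genes (grey) and the chromatin regulator genes (blue). The number above a bar is the number of genes in the bin. The grey bars run from 1.07% to 19.9% and the blue bars from 0 to 71.4%.

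Other RNA classes moved at the same step. The 4 long nuclear RNAs that had a row of their own, *Malat1* and *Meg3* among them, were all called lower in both genotypes, with a median change of -3.08 in WT and -3.43 in *Scnn1b*-Tg, and their mean level went from 8.01 to 8.68 across WT arrays at PND 0 to 5.11 to 5.49 at PND 3. Of 18 respiratory chain genes, 6 were higher in WT and 7 in *Scnn1b*-Tg. Of 15 genes of dividing cells 5 were higher in WT and 1 in *Scnn1b*-Tg. Markers of mesenchymal cells were lower for 3 of 9 in both genotypes, of endothelial cells for 2 of 8 in WT and 3 of 8 in *Scnn1b*-Tg, and of alveolar type II cells for 2 of 6 in both. Of 6 alveolar type I markers 0 were lower in WT and 1 in *Scnn1b*-Tg. Markers of lymphocytes were higher for 2 of 8 in WT and 1 of 8 in *Scnn1b*-Tg, of neutrophils for 1 and 2 of 7, and of macrophages for 0 and 2 of 7. Markers of club cells (5), ciliated cells (6) and erythroid cells (3) had 0 calls in either genotype. Defining markers of lung were present, with a mean level of alveolar type II markers between 10.3 and 11.5 on the arrays of all groups. The part of these shifts in the declines was not tested.

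Other chromatin genes, taken from lists by complex, fell to different extents. Bromodomain readers were the list most like the 82 genes, with 11 of 22 lower in both genotypes and a median of -1.07 in WT, led by *Baz2a* (-1.74), *Bptf* (-1.65), the histone-binding subunit of NURF, and *Brwd1* (-1.51). Genes of other acetyltransferases and of their complexes were lower for 5 of 13 in WT and 4 of 13 in *Scnn1b*-Tg. Among them were the acetyltransferase *Kat6a* (-1.56) and the complex members *Trrap* (-1.96), a scaffold of several acetyltransferase complexes, and *Ep400* (-1.28). Other SWI/SNF, INO80 and SWR subunits were lower for 5 of 23 in both, with *Srcap* (-1.94) and *Ino80d* (-1.49), beside a median of -0.10 for the list in WT.

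Polycomb genes were lower for 3 of 27 in WT and 2 of 27 in *Scnn1b*-Tg, including *Jarid2* (-1.14) and *Asxl1* (-1.25). DNA methylation genes were lower for 3 of 14 and 4 of 14, including the de novo methyltransferase *Dnmt3a* (-1.04) and the dioxygenase *Tet2* (-1.31). Corepressor subunits were lower for 3 of 21 and 4 of 21 (*Rcor1* at -1.44). The list of H3K9 methyltransferases, HP1 and associated proteins was lower for 1 of 11 and 2 of 11. The WT call was *Atrx* (-1.54), a remodeller that was also counted with the other SWI/SNF, INO80 and SWR subunits. The methyltransferases *Ehmt2* (-0.68) and *Setdb1* (-0.60) were not called in WT. Genes listed for COMPASS complexes, core and accessory, were lower for 2 of 11 in both (*Hcfc1* at -1.59 and *Ncoa6* at -1.21, both accessory). They are partners of the KMT2 enzymes, and the small core subunit *Dpy30* was at 0.998, just under the threshold. Of 9 arginine methyltransferases and 7 sirtuins 0 were lower, and 1 arginine methyltransferase was higher in *Scnn1b*-Tg. Some of these lists therefore lay close to the 7.02% of all genes called lower in WT.

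From PND 3 to PND 10 the changes of the chromatin genes were small, with a WT median slightly above that of all genes. In WT and in *Scnn1b*-Tg 0 of 82 were called in either direction, where 0.868% and 0.777% of all genes were. The median change was 0.15 in WT and 0.02 in *Scnn1b*-Tg, beside -0.01 over all genes in both. With 1 array left out the median of the chromatin genes ran from 0.0825 to 0.214 in WT and from -0.0287 to 0.0613 in *Scnn1b*-Tg. The *Scnn1b*-Tg median was negative without PND 3 replicate 3 (-0.0272) and without PND 10 replicate 2 (-0.0052) or 3 (-0.0287) of that genotype. At the adjusted p alone 0 were lower and 6 higher in WT, against 1.55% and 3.06% of all genes: *Ep300* (0.77 ± 0.20), *Kdm5d* (0.67), *Kmt2a* (0.61), *Kmt2c* (0.60), *Kdm5b* (0.58) and *Smarcad1* (0.58). In *Scnn1b*-Tg 0 were lower or higher at the adjusted p of limma alone, against 1.22% and 1.84% of all genes. An unadjusted p of at most 0.05 was reached by 20 of 82 in WT and 5 of 82 in *Scnn1b*-Tg, or 24.4% and 6.1%, against 15.9% and 14.1% of all genes.

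**Figure D4:**
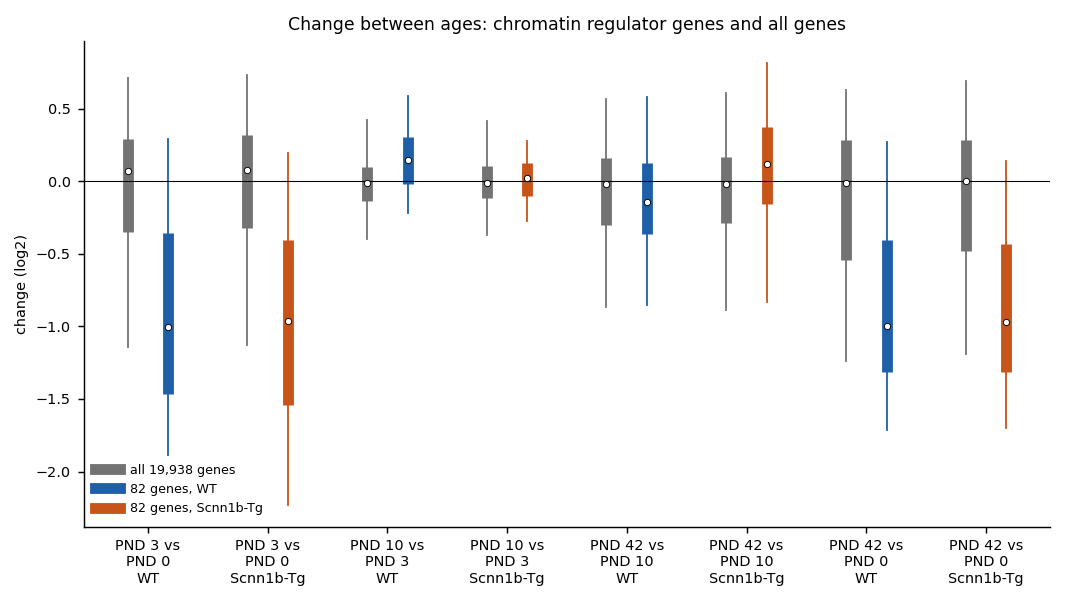
Change between ages (log2) of all 19938 genes (grey) and of the 82 chromatin regulator genes in WT (blue) and *Scnn1b*-Tg (orange). Thick bars span the quartiles, thin lines the 5th to 95th percentile, and white points are medians. The chromatin genes lie lower for PND 3 against PND 0 and PND 42 against PND 0 (medians between -1.01 and -0.96), and near all genes in the steps between.

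From PND 10 to PND 42 few chromatin genes passed 2-fold, and 3 of these 4 genes (*Smarca1*, *Nsd2* and *Hdac2*) had not been called between birth and PND 3. In WT 2 of 82 fell (2.44%, against 3.37% of all genes) and 0 rose (against 1.59%). In *Scnn1b*-Tg 2 fell (against 3.32%) and 1 rose (against 1.66%). The shares of lower genes are near those of all genes. The count of genes that rose in *Scnn1b*-Tg depended on scaling: it was 5 of 82 with quantile normalization repeated, beside 490 of 19938 genes, and 3 of 82 with array medians subtracted, beside 396 of 19938.

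*Smarca1* (SNF2L), an ISWI-type ATPase, fell in both genotypes. Its arrays went from 6.02, 6.02 and 6.13 at PND 10 to 4.84, 4.65 and 4.81 at PND 42 in WT, and from 5.97, 5.78 and 5.97 to 4.73, 4.50 and 4.95 in *Scnn1b*-Tg. The ages did not overlap, and the change was -1.29 ± 0.13 in WT (limma adjusted p = 3.0e-07) and -1.18 ± 0.13 in *Scnn1b*-Tg. Its close relative *Smarca5* (SNF2H) was at -0.41 and 0.05 and was not called.

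*Nsd2*, an H3K36 dimethyltransferase, went from 6.82, 7.22 and 7.06 to 5.26, 5.77 and 5.98 in WT, a change of -1.37 ± 0.19. In *Scnn1b*-Tg it went from 6.53, 6.75 and 7.28 to 5.82, 6.21 and 6.02, a change of -0.84 ± 0.19 that passed the adjusted p but not 2-fold. The difference between these changes was 0.53 ± 0.27 (limma adjusted p = 0.543), so the genotypes were not shown to differ. *Hdac2* went from 9.03, 9.14 and 9.69 to 8.08, 8.25 and 8.06 in *Scnn1b*-Tg, a change of -1.16 ± 0.17, and from 9.13, 9.35 and 9.35 to 8.18, 8.37 and 8.70 in WT, a change of -0.86 ± 0.17 under 2-fold. The *Hdac2* call ended without *Scnn1b*-Tg PND 10 replicate 3, its highest array at 9.69, with a change of -0.96.

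*Hdac1* measured 9.33, 9.27 and 9.37 at PND 10 and 9.19, 9.12 and 9.14 at PND 42 in WT. *Smarcb1* measured 8.21, 8.0 and 8.18 and then 7.58, 7.50 and 7.72, a change of -0.53 ± 0.17. At the adjusted p alone 18 of 82 genes were lower and 9 higher in WT, near the 20% and 9.86% of all genes. The lower ones included the SWI/SNF subunits *Smarcd1* (-0.91), *Smarcc1* (-0.61) and *Smarcd2* (-0.44) with *Hdac3* (-0.83). Over the same step 13 of 15 dividing cell genes were called lower in both genotypes, and their mean level went from 6.30 to 6.61 across WT arrays at PND 10 to 4.75 to 4.92 at PND 42. The part of that shift was not tested.

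*Chd7* was the member that rose, in *Scnn1b*-Tg, from 5.97, 5.57 and 6.01 to 7.39, 7.26 and 6.52, a change of 1.21 ± 0.25 (limma adjusted p = 0.00085). In WT it went from 6.14, 6.03 and 5.64 to 6.77, 6.86 and 6.36, a change of 0.73 ± 0.25 under 2-fold, and the difference between the changes was 0.48 ± 0.35 (adjusted p = 0.743). The rise rests on the brightest row. Of the 30 *Chd7* rows 1 was called higher in *Scnn1b*-Tg and 0 in WT, the median change over rows was 0.33 and 0.15, and with the mean of all rows the change in *Scnn1b*-Tg was 0.44 and no longer called. At the adjusted p alone 20 genes were higher in *Scnn1b*-Tg, or 24.4% against 10.4% of all genes, and 12 were lower, against 19.3%. Macrophage markers moved at the same step in *Scnn1b*-Tg: 3 of 7 were called higher there and 0 of 7 in WT, and their mean level went from between 7.07 and 7.53 on the arrays of PND 10 to between 8.07 and 8.98 at PND 42 in *Scnn1b*-Tg, and from between 6.69 and 6.98 to between 7.06 and 7.31 in WT. Their part in the result was not tested. The 20 included *Kmt2a* (0.96), *Kmt2e* (0.96), *Smarca2* (0.83), *Ep300* (0.82), *Setd7* (0.78), *Kmt2b* (0.75) and *Crebbp* (0.67).

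Paralogues parted at this step. *Smarcc2* was higher at PND 42 in both genotypes (0.66 ± 0.15 in each), whereas *Smarcc1* was lower in WT (-0.61 ± 0.16) and at -0.15 in *Scnn1b*-Tg. *Smarca2* was higher in both (0.74 and 0.83) and *Smarca4* was at -0.20 and -0.05. Of these, both *Smarcc2* and *Smarca2* values and the WT value of *Smarcc1* passed the adjusted p, and none passed 2-fold.

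At PND 42 most of the early decline remained. Against PND 0, 41 of 82 genes were lower in WT (50%, against 9.25% of all genes) and 38 in *Scnn1b*-Tg (46.3%, against 8.16%), and 0 were higher in either, against 1.65% and 2.43%. The median change was -0.999 in WT and -0.97 in *Scnn1b*-Tg. Of the 42 genes that fell by PND 3 in WT, 35 were still called lower, and of the 37 in *Scnn1b*-Tg, 30 were. *Arid2* (-1.92 and -2.02), *Kdm6a* (-1.89 and -1.60) and *Kdm7a* (-1.79 and -1.97) were the lowest among them in WT.

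*Smarca2*, *Kdm3b* and *Nsd3* fell early and were no longer called at PND 42 in both genotypes. *Smarca2* had come back to -0.05 ± 0.17 in WT and -0.32 ± 0.17 in *Scnn1b*-Tg. *Smarca1*, *Nsd2*, *Kdm1a* (LSD1) and *Kmt5c* were called at PND 42 only, in both genotypes. *Smarcd1*, which was called early in *Scnn1b*-Tg alone, had changed by -1.69 in WT and by -1.90 in *Scnn1b*-Tg. The count at PND 42 depended on scaling. With quantile normalization repeated over the tested rows 13 genes were lower in WT and 17 in *Scnn1b*-Tg, where 3.25% and 3.36% of all genes were. With array medians subtracted 23 and 28 were, against 5.03% and 5.08% of all genes.

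The genotype comparison asked whether the transgene altered these genes. At PND 0, 3, 10 and 42, 0 of 82 were called, against 0.015%, 0.0201%, 0.145% and 0.361% of all genes in either direction. An unadjusted p of at most 0.05 was reached by 7, 4, 15 and 10 of the 82, or 8.54%, 4.88%, 18.3% and 12.2%, against 4.27%, 7.58%, 8.26% and 10.3% of all genes. The median difference was 0.10, 0.04, -0.13 and 0.07 at the 4 ages, and leaving out 1 array moved it between 0.0421 and 0.118, -0.0137 and 0.0977, -0.19 and -0.0865, and 0.0352 and 0.102, with the negative value at PND 3 found without *Scnn1b*-Tg replicate 1. At PND 42, 4 of 7 macrophage markers were called higher in *Scnn1b*-Tg, and at PND 10 1 of 7, and their part in the differences was not tested. At PND 10 the mean of 63 genes was lower in *Scnn1b*-Tg, beside a median difference of 0.0012 over all genes. The 82 genes share their arrays, so this count is not one of independent results. The middle 90% of the 82 differences lay between -0.41 and 0.18, and of all genes between -0.29 and 0.32.

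**Figure D5:**
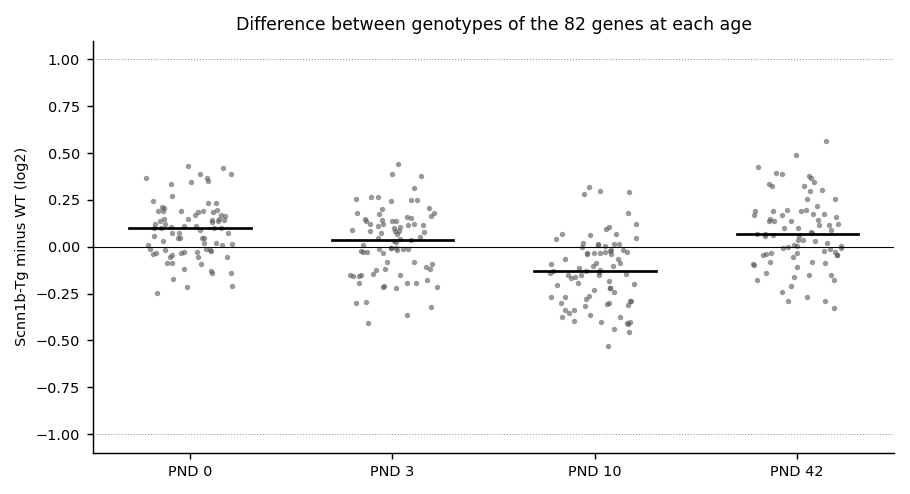
Difference between genotypes (*Scnn1b*-Tg minus WT, log2) of each of the 82 genes at each age. Points are genes, spread sideways at random, black bars are medians (0.10, 0.04, -0.13 and 0.07) and dotted lines mark 2-fold. No point reaches a dotted line.

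*Kdm6b*, the inducible H3K27 demethylase, came nearest. At PND 10 it measured 5.63, 5.92 and 5.59 in WT and 5.34, 5.23 and 5.34 in *Scnn1b*-Tg, a difference of -0.41 ± 0.12 without overlap (limma adjusted p = 0.146). At PND 42 it measured 5.70, 5.66 and 5.35 in WT and 5.92, 5.78 and 5.99 in *Scnn1b*-Tg, a difference of 0.33 ± 0.12 without overlap (limma adjusted p = 0.280). The order of the genotypes was thus opposite at these ages. Between PND 10 and PND 42 the change was greater in *Scnn1b*-Tg by 0.74 ± 0.17 (adjusted p = 0.0606 in the limma test of the difference), and that p ran from 0.0466 to 0.204 over 25 alternatives, with no alternative reaching 2-fold.

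In that same test *Crebbp* differed by 0.90 ± 0.25 (limma adjusted p = 0.138) and *Ep300* by 0.97 ± 0.29 (0.169). *Ep300* measured 6.69, 7.26 and 6.79 in WT and 6.27, 6.87 and 6.39 in *Scnn1b*-Tg at PND 10, and 6.44, 6.99 and 6.86 against 7.01, 7.37 and 7.61 at PND 42. Its *Scnn1b*-Tg arrays lay above all WT arrays at PND 42 and overlapped with them at PND 10. In the tests of the difference of change, 0 of 82 were called from PND 3 to PND 10 (0.01% of all genes) and 0 from PND 10 to PND 42 (0.236%). Unadjusted p-values of at most 0.05 numbered 12 and 21 of 82, or 14.6% and 25.6%, against 6.64% and 9.31% of all genes, with medians of -0.17 and 0.17.

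Arrays of the 2 ages moved apart in opposite directions in the genotypes for *Kdm6b* from PND 3 to PND 10 and for *Chd9* and *Kdm5a* from PND 10 to PND 42, a pattern seen in 0.507% and 0.466% of all genes. *Kdm5a*, an H3K4 demethylase, went from 7.0, 7.16 and 6.87 to 6.67, 6.80 and 6.69 in WT and from 6.38, 6.65 and 6.42 to 6.78, 7.14 and 6.82 in *Scnn1b*-Tg, with a difference of change of 0.72 ± 0.28 (limma adjusted p = 0.368). *Chd9* differed by 0.56 ± 0.21 (limma adjusted p = 0.347) and *Kdm6b* in the earlier step by -0.49 ± 0.17 (limma adjusted p = 0.591). None of the 3 passed the test.

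Across the 8 group means the 82 genes resembled each other, with a median pairwise Pearson correlation of 0.77 over 3321 pairs that share their arrays. The genes of the whole table most like *Chd7* over the same 8 means were *Itsn2* (0.998), *Alcam* (0.997), *Stard13* (0.997), *Zmiz1* (0.996) and *Nav1* (0.995), and their WT changes to PND 3 lay between -2.40 and -1.05. The mean level of the 82 genes on single arrays ran from 7.05 to 7.24 at PND 0 and from 6.10 to 6.44 at the later ages over both genotypes, so no array of a later age overlapped with those of birth.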

How the data were processed

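Log2 values of 35556 rows on 24 whole lung arrays were used as deposited. The authors made them with RMA in Partek (6.5 per the labels), with GC and sequence adjustment, quantile normalization and median polish, so differences between arrays are relative to the array as a whole. Gene names came from the platform annotation. The 21789 rows annotated to 1 gene were tested, 1621 rows with several genes and 12146 with none were not, and all 82 members matched RefSeq by gene ID. limma 3.58.1 (R 4.3.3) fitted 1 mean per group with eBayes over all arrays (16 residual degrees of freedom). The background share is over the brightest row of each of 19938 genes. The fit was tested on simulated data. The number of arrays limits the precision.

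All members could be named. Values on single arrays of the ages compared were given for up to 6 members with the largest called WT change in an interval. They were also given for those called upward and the 3 steadiest members of mean level over 7. For some members only WT arrays were printed, and paralogues that parted were described by their changes. Arrays of *Crebbp*, *Ep300*, *Kdm6b* and *Kdm5a* were added, and these genes were chosen after their values were seen. For each other list the 3 genes of lowest p could be named. Members and lists were chosen with earlier results of these data known. Genomic length stood in for protein length, which was not used here. Alternatives varied the moderation, arrays fitted, replicate block, scaling, rows, thresholds and arrays left out; use of the row on the gene's own chromosome was added after seeing the data.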

Additional observations from a re-analysis of the deposited data

How the results depend on the processing

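Across 23 counts, 12 medians and 17 changes of members described array by array, no called value changed sign. The counts of lower genes at PND 3 were 29 in WT and 30 in *Scnn1b*-Tg with quantile normalization repeated, and 34 and 35 with array medians subtracted. All of these were among the genes first called. Repeated quantile normalization gave 3.78% of all genes lower in WT against 7.02%, a median of the members of -0.71 in WT and -0.70 in *Scnn1b*-Tg at PND 3 and of -0.55 and -0.55 at PND 42 against PND 0, and of 0.0281 instead of -0.14 in WT from PND 10 to PND 42. It left 13 and 17 genes lower at PND 42 against PND 0, and 1 lower (*Hdac2* at -0.98 was lost) and 5 higher in *Scnn1b*-Tg from PND 10 to PND 42. Subtracting array medians gave -0.84 and -0.81 at PND 3, -0.77 and -0.78 at PND 42 against PND 0, 23 genes lower in WT there, and 3 higher in *Scnn1b*-Tg from PND 10 to PND 42, and moved the median of all genes from 0.07 to 0.24 in WT at PND 3.

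Without a fold threshold the counts at PND 3 were 2 higher in WT, and 65 lower and 3 higher in *Scnn1b*-Tg. At PND 10 they were 6 higher in WT, and from PND 10 to PND 42 18 lower and 9 higher in WT and 12 lower and 20 higher in *Scnn1b*-Tg. At PND 42 against PND 0 they were 63 lower and 3 higher in WT, against 33% and 23.8% of all genes. In *Scnn1b*-Tg they were 64 lower and 2 higher, against 30.8% and 23.2% of all genes. At 1.5-fold they were 4 higher in WT at PND 10, 9 lower and 5 higher in WT and 8 lower and 15 higher in *Scnn1b*-Tg from PND 10 to PND 42, and 1 higher in *Scnn1b*-Tg at PND 3 and 1 at PND 42 against PND 0. The share of all genes at 1.5-fold is not given here. With the mean of all rows of a gene 0 were higher in *Scnn1b*-Tg from PND 10 to PND 42.

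Leaving out 1 array gave 38 to 43 lower in WT and 37 to 41 in *Scnn1b*-Tg at PND 3, 34 to 43 and 33 to 43 at PND 42 against PND 0, 2 to 3 lower in WT and 1 to 3 lower and 1 to 3 higher in *Scnn1b*-Tg from PND 10 to PND 42, and 0 in every comparison of the genotypes. The count of 1 was without *Scnn1b*-Tg PND 10 replicate 3, and the 3 higher were without *Scnn1b*-Tg PND 10 replicate 2 or PND 42 replicate 3. Medians ran from -1.05 to -0.91 in WT and -0.997 to -0.834 in *Scnn1b*-Tg at PND 3, and from -0.18 to -0.0283 in WT and -0.0094 (without *Scnn1b*-Tg PND 10 replicate 1) to 0.142 in *Scnn1b*-Tg from PND 10 to PND 42.

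Replicate numbers carry no stated meaning in the labels. Arrays with the same number had a median correlation of deviations of 0.026 over 84 pairs, with only 19 over 0.1, so the numbers were not taken to pair the arrays. As a hint from the data the other way, 14 of 24 arrays correlated best with their own number. With the replicate block the counts at PND 3 stayed at 42 and 37. With dim rows left out, 75 of the 82 members remained and the 42 and 37 calls were kept. *Setd1b*, called in WT at a mean level of 4.74, was among those kept, and its group means passed 5 log2 only at PND 0. For this gene the kept call is not separate support, since it stayed through the group where it was high. With 3 pools a group the precision of small genotype differences is limited. The row on the gene's own chromosome changed no count.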
